A study of Mus musculus with 12 samples.

Results

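The amyloid precursor family and its secretases were followed as 9 genes: App, Aplp1, Aplp2, Bace1, Psen2, Psenen, Ncstn, Aph1a and Adam10. Every probe that carried 1 of these gene names in the scanner files was taken, which gave 15 probes of 41174 on the array. Of these, 8 probes of 6 genes passed the filter on dim signals, among 12987 probes of 10898 genes that passed it in all. To pass, a probe needed 4 or more of the 6 readings in some region and genotype flagged as well above background.

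The samples were neurons cut out by laser from stained brain sections of 2-month-old female C57BL/6 mice. Mutants were Naglu-/- mice, which lack the lysosomal enzyme that removes N-acetylglucosamine from heparan sulfate, a defect that in people causes Sanfilippo syndrome type B. The controls were Naglu+/- littermates, which carry 1 intact copy. From each mouse 500 neurons were taken per region, from the medial (MEC) or the lateral entorhinal cortex (LEC), chosen by position and Nissl stain and not by a neuronal type. The RNA was amplified, and 3 mutant and control pairs per region were hybridised on 2 dye-swapped Agilent arrays each, 12 arrays in all. No label says whether the MEC and LEC pairs of 1 number came from the same mice.

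APP is a membrane protein that is cut by proteases called secretases. ADAM10, the main alpha-secretase of neurons, and BACE1, the beta-secretase, shed its outer part, and gamma-secretase then cuts the stump inside the membrane. Gamma-secretase is a complex of a presenilin, which holds the active site, with nicastrin, APH-1 and PEN-2, and after BACE1 it releases amyloid-beta. APLP1 and APLP2 are relatives of APP that are cut by the same proteases but hold no amyloid-beta sequence.

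A log2 ratio below is mutant over control in 1 pair, the mean of its dye-swapped arrays. A level is the mean log2 intensity of both dyes after quantile normalisation, so it covers both genotypes of a pair. Adjusted p-values come from limma with Benjamini-Hochberg adjustment over all probes tested and a threshold of 0.05. SE stands for the standard error that limma gives, from 3 pairs in each region. It rests on 1 spread for both regions, moderated over all probes tested, and is not the spread of a single region's pairs. Levels of different probes are not comparable and are not set against each other. Sums of cell type markers add the linear levels of different probes, so the brightest probes weigh most in them.

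Cy3 signals had medians of 67 to 92.5 per array and Cy5 signals of 44.4 to 54.9. The share of spots well above background was 48.1% to 67.9% for Cy3 but 14.7% to 30.2% for Cy5. In replicate 2 of both regions the authors' value table has the opposite sign to the labelled dyes, and 5 of 6 LEC files carry the name of a different LEC sample. Ratios here follow the table, and those of replicate 2 have no settled direction, so counts of pairs and averages are also given with replicate 2 turned as labelled. Levels by genotype and results of mutant or control channels alone depend on that direction as well. They follow the table, and turned means by genotype are given for Aplp2 only. With every ratio turned to mutant over control, the dye-swapped arrays of a pair correlated across kept probes at −0.28 in MEC pair 1 and at 0.01 to 0.45 in the other pairs. All MEC arrays were scanned on 1 day and all LEC arrays on another, so region and scan day cannot be told apart. Naglu itself had log2 ratios of −0.04 to 0.09 over the 6 pairs at its brighter probe, which was well above background in 12 of 24 readings and below the filter. Where that probe lies relative to the disrupted stretch is not known, so it checks neither genotype nor labels. Neuronal markers were present: 5 of 8 excitatory and 6 of 6 inhibitory markers passed the filter (Slc17a7 and Tbr1 were among those that did not), but so did 6 of 8 astrocyte, 7 of 8 oligodendrocyte and 11 of 14 microglial markers (Gfap, Aqp4, Mog, Itgam, C1qa and Cd68 did not).

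Aplp1, Psenen and Aplp2 are the genes on which the results turn, since the first pair passed the test between regions and Aplp2 had the highest averaged mutant ratio of the 8 kept probes in the direction of the table. The 250 bases before their RefSeq transcription starts are shown for these genes, in assembly GRCm38.p6, 5′ to 3′ on the minus strand, with the GC box GGGCGG (searched on both strands) in capitals. RefSeq entries were found for 8 of the 9 genes. Psenen has 2 start sites.
Aplp1 (chr7:30445583-30445832): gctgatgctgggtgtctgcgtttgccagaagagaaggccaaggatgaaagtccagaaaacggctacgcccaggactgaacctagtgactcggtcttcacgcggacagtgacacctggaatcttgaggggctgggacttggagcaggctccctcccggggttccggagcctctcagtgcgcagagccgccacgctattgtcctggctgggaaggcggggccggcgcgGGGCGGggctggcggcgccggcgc
Psenen, upstream start (chr7:30563628-30563877): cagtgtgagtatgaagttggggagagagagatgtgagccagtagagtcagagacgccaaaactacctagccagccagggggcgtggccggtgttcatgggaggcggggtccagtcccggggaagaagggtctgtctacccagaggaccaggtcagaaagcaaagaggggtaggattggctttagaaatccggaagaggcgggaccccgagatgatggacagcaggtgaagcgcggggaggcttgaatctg
Psenen, downstream start (chr7:30563205-30563454): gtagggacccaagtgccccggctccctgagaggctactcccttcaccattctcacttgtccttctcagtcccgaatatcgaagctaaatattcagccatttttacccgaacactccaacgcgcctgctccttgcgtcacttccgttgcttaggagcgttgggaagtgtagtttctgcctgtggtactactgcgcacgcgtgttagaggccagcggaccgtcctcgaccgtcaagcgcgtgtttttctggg
Aplp2 (chr9:31211849-31212098): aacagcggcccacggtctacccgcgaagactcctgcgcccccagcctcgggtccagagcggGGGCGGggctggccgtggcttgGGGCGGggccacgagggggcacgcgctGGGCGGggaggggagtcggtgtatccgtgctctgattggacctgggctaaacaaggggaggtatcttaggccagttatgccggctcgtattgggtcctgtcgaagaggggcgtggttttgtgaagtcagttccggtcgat

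Aplp1 held 1 GC box, Aplp2 held 3 and neither Psenen window held any, while 32.7% of 32851 promoter windows of this length held at least 1. None of these 4 windows contained TATAAA on either strand, which 12.4% of all windows did. CG dinucleotides numbered 20 in Aplp1, 10 and 18 in the Psenen windows and 22 in Aplp2, against a median of 6 over all windows. These are descriptions of the letters alone, and the arrays hold no measurement of the promoters.

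The filter kept probes of App, Aplp1, Aplp2, Bace1, Psen2 and Psenen but none of Ncstn, Aph1a or Adam10. Some App and Aplp2 probes failed it too. The probes of Aplp1, Bace1, Psen2 and Psenen, the brightest App probe and the brightest Aplp2 probe were well above background in all 24 readings. Ncstn, the nicastrin gene, had its only probe (mm8 chr1:173904876-173904935) well above background in 12 readings, 3 of 6 in each region and genotype. All 12 were Cy3 readings and none was Cy5, so Ncstn missed the filter in every group alike. With the dyes swapped each group held only 3 Cy3 readings, so a probe seen in Cy3 alone could not reach the 4 needed. Its median signal after subtraction of the local background was 56.5 in Cy3 and 12.3 in Cy5. Aph1a, which encodes the APH-1 subunit, had 1 probe (chr3:95980863-95980922) with 5 such readings, and another (chr3:95982361-95982420) with 0. Adam10 had 1 probe (chr9:70577374-70577432) with 1 such reading, in LEC mutants. None of these probes reached the 4 readings of a group that the filter asked for, and that is no measure of how much of the transcript the neurons held.

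**Figure D1:**
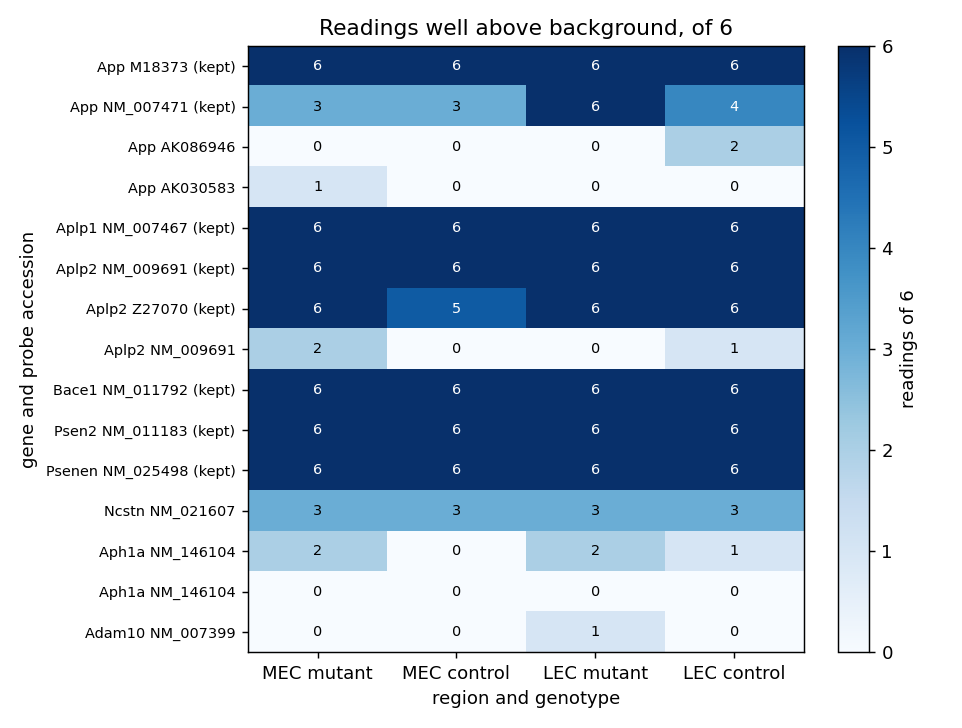
Number of readings well above background, of 6 (3 pairs on 2 arrays), for each of the 15 probes (rows) in each region and genotype (columns); "kept" marks the 8 probes that passed the filter. The kept probes of Aplp1, Bace1, Psen2 and Psenen are at 6 in every column, Ncstn is at 3 in every column, and Aph1a and Adam10 are at 0 to 2.

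In the comparison of mutant with control, no gene of the family or its secretases passed the adjusted threshold in MEC, in LEC, averaged over both or in the difference between them. The background was the same: limma called 0 of 12987 probes in each of these comparisons (0%). At an unadjusted p under 0.05 it gave 135 probes in MEC (1.04%), 199 in LEC (1.53%), 274 for the average (2.11%) and 71 for the difference between regions (0.547%). Of the 8 kept probes, 1 lay under that unadjusted value in MEC and for the average, both times the brightest Aplp2 probe, and 0 in LEC or for the difference. The averaged log2 ratios of the 8 probes ran from −0.07 to 0.24 with a median of 0.012, and all kept probes had a median of 0.00089.

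Aplp2 encodes the most widely expressed relative of APP. Its brightest probe (mm8 chr9:30899153-30899212) had log2 ratios of 0.42, 0.18 and 0.38 in the MEC pairs and 0.30, 0.32 and −0.17 in the LEC pairs. The ratio was above 0 in 5 of 6 pairs and 10 of 12 arrays, and LEC pair 3 was the exception on both of its arrays. It was above 0 in 3 of 6 pairs and 6 of 12 arrays once replicate 2 was turned as labelled. The mean was 0.32 (SE 0.11, adjusted p = 1.00) in MEC, 0.15 (SE 0.11, adjusted p = 1.00) in LEC and 0.24 averaged (SE 0.077, 1.18-fold, adjusted p = 1.00 by limma). The unadjusted p of the average was 0.018, and the 95% interval ran from 0.055 to 0.42. Without MEC replicate 1, whose arrays agreed least over all probes, the average was 0.21, and without LEC replicate 3 it was 0.32. With replicate 2 turned as labelled the mean was 0.21 in MEC and −0.06 in LEC and the average was 0.071, with files and dyes as labelled 0.16, and with Agilent's processed signals 0.27. In the table's direction the mean log2 ratio of the 11 kept microglial markers was above 0 in 6 of 6 pairs, from 0.21 to 0.50, and with replicate 2 turned it was above 0 in 4 of 6, with −0.30 in MEC pair 2 and −0.50 in LEC pair 2. In the table's direction their summed linear level was 1454 to 1746 in MEC mutants, against 1043 to 1098 in MEC controls, and 1234 to 1874 in LEC mutants, against 936 to 1125 in LEC controls. The ratios averaged over both regions had a median of 0.066 for these 11 markers, with 9 above 0, so the mean and the sum do not hold for each marker. The mean ratio of the 6 kept astrocyte markers ran from −0.25 in LEC pair 3 to 0.58 in LEC pair 2, in the table's direction. The part of other cells in the Aplp2 ratio was not tested.

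The second kept Aplp2 probe (Z27070, chr9:30899403-30899466) starts 250 bases from the first, and its values did not repeat that pattern. It read 0.03, −0.39 and 0.25 (log2) in the MEC pairs, while the LEC pairs stood at 0.14, 0.17 and −0.10. The ratio was above 0 in 4 of 6 pairs and 5 of 12 arrays, with an average of 0.018 (SE 0.086), or 0.091 with replicate 2 turned. In the table's direction every array with the mutant in Cy3 was below 0, from −0.70 to −0.014. Arrays with the mutant in Cy5 ran from −0.073 to 0.66. So the readings of this probe followed the dye, and its pair values are averages over such swings. Set against the brightest probe in the same pairs, it was lower in 5 of 6, by −0.22 on average (SE 0.076, unadjusted p = 0.024, adjusted p = 1.00 by limma over 2089 probe pairs of 1828 genes). None of the 2089 probe pairs passed the adjusted threshold (0%), and 50 had an unadjusted p under 0.05 (2.39%). The Z27070 probe was dim, with a median signal after background subtraction of 48.4 in Cy3 and 38.7 in Cy5. With replicate 2 turned as labelled the difference between the probes was 0.020, on the other side of 0, and the Z27070 probe was lower in 3 of 6 pairs. The remaining Aplp2 probe (chr9:30914152-30914211) was well above background in 3 of 24 readings and did not pass the filter.

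App, the precursor of amyloid-beta, had a ratio whose direction depended on that of replicate 2. At its brightest probe (M18373, mm8 chr16:84838579-84838638) the MEC pairs had log2 ratios of −0.17, −0.30 and 0.32, and the LEC pairs had 0.14, −0.36 and 0.05. Pairs above and below 0 were equally many, and the pairs of each region lay on both sides; with replicate 2 turned as labelled, 5 of 6 pairs were above 0. The average was −0.05 (SE 0.099, adjusted p = 1.00 by limma), with a 95% interval from −0.29 to 0.18. Turned, the average was 0.17, not called by limma. The second kept App probe (NM_007471, chr16:84846270-84849130, placed across more than its own length) read 0.08, −0.35 and 0.24 in MEC and 0.07, −0.0036 and 0.0022 in LEC. In LEC pair 3 its swapped arrays read 0.37 with the mutant in Cy5 and −0.37 with the mutant in Cy3. This probe averaged 0.0064, or 0.12 with replicate 2 turned, when 6 of 6 pairs but 8 of 12 arrays were above 0. It differed from the brightest probe by 0.059 (SE 0.084, adjusted p = 1.00 by limma). With Agilent's processed signals its average was 0.21 and that difference 0.26. The probe was dim, with a median signal after background subtraction of 47.7 in Cy3 and 27.7 in Cy5. It was well above background in 16 of 24 readings, and the remaining App probes (chr16:84896392-84896451 and chr16:85054013-85054072) in 2 and 1. By group the NM_007471 probe had 3 of 6 such readings in MEC mutants and in MEC controls, 6 in LEC mutants and 4 in LEC controls. So it passed the filter through LEC alone.

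**Figure D2:**
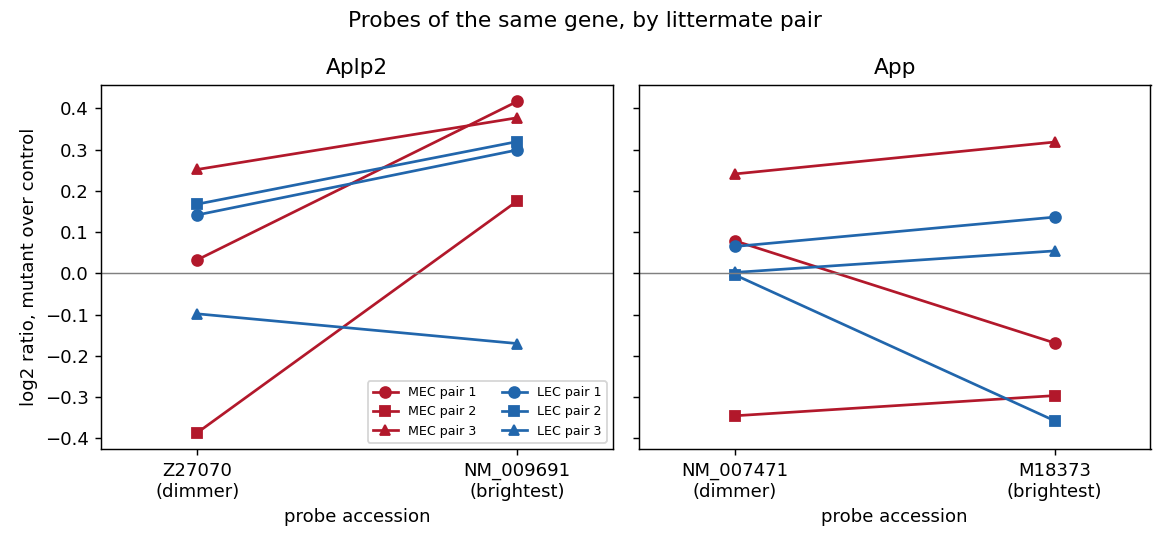
Log2 ratio of mutant over control at the dimmer kept probe (left) and the brightest probe (right) of Aplp2 and of App, with 1 line per littermate pair, MEC in red and LEC in blue. In the direction of the authors' table the Aplp2 line is higher at the brightest probe in 5 of 6 pairs, and in 3 of 6 with replicate 2 turned; for App the lines cross.

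Aplp1, the relative found mainly in neurons, had log2 ratios of −0.19, 0.12 and −0.21 in MEC and −0.11, 0.08 and −0.12 in LEC. Replicate 2, whose direction is not settled, was above 0 in both regions and the other 4 pairs were below 0, so all 6 were below 0 with replicate 2 turned. Of the single arrays 3 of 12 were above 0 in that direction. The average was −0.07 (SE 0.060, adjusted p = 1.00 by limma), and −0.14 with replicate 2 turned as labelled (lowest adjusted p over 17 alternatives 0.28).

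Of the 8 kept probes of the family and its secretases, that of Bace1 had the narrowest spread over the 6 pairs, with an SD of 0.097. Its probe (mm8 chr9:45612953-45613012) read 0.10, −0.11 and 0.11 in MEC and 0.10, −0.05 and 0.10 in LEC, an average of 0.042 (SE 0.051, adjusted p = 1.00 by limma). The 95% interval was −0.078 to 0.16. Its median signal after background subtraction was 93.3 in Cy3 and 100 in Cy5, beside an offset of 50 in the background correction. With Agilent's processed signals the average was 0.11 and the MEC mean 0.16, so the size of these ratios depends on the processing. With replicate 2 turned as labelled the average was 0.095, with 6 of 6 pairs above 0, from 0.048 to 0.11, and 9 of 12 arrays. That average was not called by limma (lowest adjusted p over 17 alternatives 0.37). In the turned direction 61.7% of all kept probes also averaged above 0, and how many had all 6 pairs on the same side is not given here. Psen2, the gene of presenilin 2, read 0.25, 0.02 and −0.14 in MEC and 0.0049, −0.22 and 0.17 in LEC (chr1:182063710-182063769). Its average was 0.014 (SE 0.071), with pairs of both regions on both sides of 0, and the average was 0.080 with replicate 2 turned. Psenen, the gene of the PEN-2 subunit, read 0.04, −0.11 and 0.26 in MEC and 0.10, 0.13 and −0.35 in LEC (chr7:30270849-30271097), an average of 0.0098 (SE 0.081), or 0.0036 with replicate 2 turned. Each of these intervals includes small changes in both directions, and a p above the threshold does not show that the genotypes were equal.

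**Figure D3:**
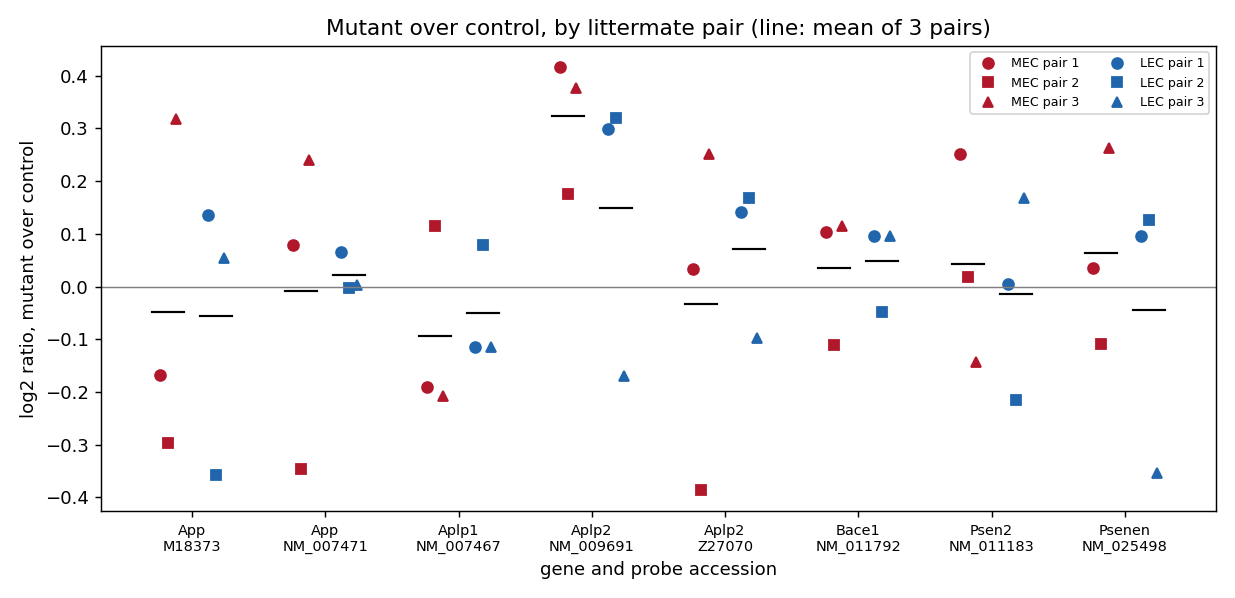
Log2 ratio of mutant over control (y axis) for the 8 kept probes (x axis), 1 point per littermate pair, MEC in red and LEC in blue, with a line at the mean of 3 pairs. The brightest Aplp2 probe is above 0 in 5 of 6 pairs, from −0.17 to 0.42, in the direction of the authors' table. With the pair 2 points (squares) mirrored about 0, Aplp2 is above 0 in 3 of 6 pairs, Bace1 in 6 of 6 and Aplp1 in 0 of 6. So mirrored, 61.7% of all kept probes average above 0.

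The comparison of MEC with LEC asked whether the neighbouring regions, of both genotypes together, differ in level. Aplp1 was lower in MEC and Psenen was higher in MEC past the adjusted threshold, and the other 6 kept probes were not called. Region calls were common on these arrays: limma called 3152 of 12987 probes (24.3%), 1677 lower in MEC (12.9%) and 1475 higher in MEC (11.4%). So 2 of 8 probes called is near the background. The median level difference of the 8 probes was −0.04, against −0.01 over all kept probes. For 3 of the 8 probes the MEC and LEC pairs did not overlap, as for 42.7% of the 12981 probes with a value in every pair.

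Aplp1 (mm8 chr7:30143794-30143853) had log2 levels of 8.51, 8.97 and 9.01 in MEC, against 9.42, 9.35 and 9.57 in LEC. Every MEC pair was below every LEC pair, and MEC pair 1 was the lowest. The mean was 8.83 ± 0.28 in MEC and 9.45 ± 0.12 in LEC (SD, n = 3 pairs each), a difference of −0.62 (SE 0.13, 0.651-fold, adjusted p = 0.011 by limma). By genotype, in the table's direction, the order was 8.78 ± 0.32 in MEC mutants, 8.87 ± 0.26 in MEC controls, 9.42 ± 0.08 in LEC mutants and 9.47 ± 0.16 in LEC controls (SD, n = 3). The step between MEC controls and LEC mutants exceeded the larger SD, and the steps between genotypes did not. In mutant channels alone the difference was −0.64 with an adjusted p of 0.066 by limma, and in 17 of 18 alternatives it stayed called, from −1.22 to −0.46 over all 18. Fewer cells of a type and less transcript per cell cannot be told apart in such samples.

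Psenen was 7.11, 7.14 and 7.09 in MEC, against 6.96, 6.90 and 6.86 in LEC, again without overlap. The mean was 7.11 ± 0.03 in MEC and 6.91 ± 0.05 in LEC (SD, n = 3 pairs each), a difference of 0.21 (SE 0.048, 1.15-fold, adjusted p = 0.017 by limma). Levels by genotype, in the table's direction, were 7.15 ± 0.07 in MEC mutants, 7.08 ± 0.12 in MEC controls, 6.89 ± 0.18 in LEC mutants and 6.93 ± 0.10 in LEC controls (SD, n = 3). This call was less steady than that of Aplp1: it held in 12 of 18 alternatives, and was lost without MEC replicate 2 (0.19, adjusted p = 0.060) or without LEC replicate 2 (0.20, adjusted p = 0.062, both by limma). It also depended on the scaling. With arrays scaled by their medians in place of quantile normalisation, the level difference of all kept probes had a median of −0.17, and Psenen stood at −0.16, so 0.014 above that median. In the same setting Aplp1 was at −1.22, which is −1.04 relative to all kept probes. The split of region calls went with it: 2.80% of 6749 calls were higher in MEC with median scaling, against 46.8% of 3152 with quantile normalisation. On the chromosome the Aplp1 and Psenen probes lie 127 kb apart.

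**Figure D4:**
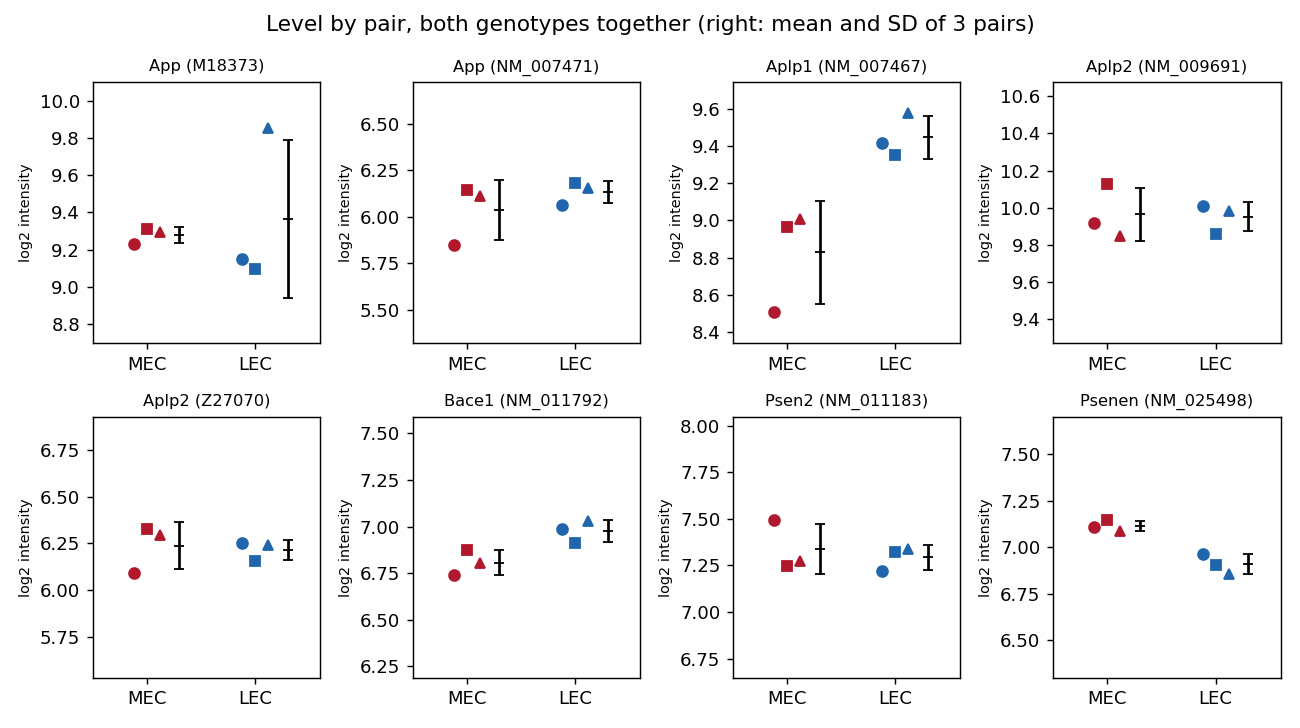
Log2 level of the 8 kept probes in the 3 MEC pairs (red) and the 3 LEC pairs (blue), both genotypes together, with the mean and SD of 3 pairs at the right of each group; each panel spans 1.4 log2 units around its own values. The MEC and LEC points of Aplp1, Bace1 and Psenen do not overlap, and App is highest in LEC pair 3.

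Bace1 read 6.74, 6.87 and 6.81 in MEC, against 6.99, 6.91 and 7.03 in LEC. The regions did not overlap, and the difference of −0.17 (SE 0.055, adjusted p = 0.055 by limma) just missed the threshold. It was −0.30 with Agilent's processed signals, −0.50 with median scaling, and −0.18 with an adjusted p of 0.044 by limma in Cy5 signals alone. The difference was called in 2 of 18 alternatives. By genotype, in the table's direction, Bace1 was 6.79 to 6.86 in MEC mutants, 6.69 to 6.93 in MEC controls, 6.89 to 7.08 in LEC mutants and 6.94 to 6.98 in LEC controls.

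App (M18373) was 9.23, 9.31 and 9.29 in MEC, against 9.15, 9.09 and 9.86 in LEC. LEC pair 3 stood above the other 5 pairs, and the other LEC pairs were below all MEC pairs. The difference was −0.09 (SE 0.18, adjusted p = 0.75 by limma), and it was 0.16 without LEC replicate 3. With median scaling it was −0.69, where all kept probes had a median of −0.17. It was called in 1 of 18 alternatives. By genotype, in the table's direction, the means were 9.25 ± 0.17 in MEC mutants, 9.30 ± 0.16 in MEC controls, 9.34 ± 0.49 in LEC mutants and 9.39 ± 0.39 in LEC controls (SD, n = 3). No neighbours in that order differed beyond the larger SD. The dimmer App probe differed by −0.098 (adjusted p = 0.42 by limma). It passed the filter through LEC alone, so its region difference is not independent of the filter.

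Aplp2 read 9.92, 10.13 and 9.85 in MEC, against 10.01, 9.86 and 9.99 in LEC at its brightest probe, so the regions overlapped. The difference was 0.013 (SE 0.078, adjusted p = 0.92 by limma). Its genotype means were 10.13 ± 0.09 in MEC mutants, 9.80 ± 0.20 in MEC controls, 10.03 ± 0.13 in LEC mutants and 9.88 ± 0.18 in LEC controls (SD, n = 3). Ordered by level, each step from one mean to the next was within the larger SD. Both LEC means lie between the MEC means in that order, so no step compares the genotypes within MEC. Within the MEC pairs the log2 ratio was 0.32 with an SD of 0.13 in the table's direction, and it was not called by limma. Turned as labelled in replicate 2, the means were 10.07 ± 0.05 in MEC mutants, 9.86 ± 0.30 in MEC controls, 9.92 ± 0.23 in LEC mutants and 9.98 ± 0.11 in LEC controls (SD, n = 3). At the Z27070 probe the region difference was 0.022 (adjusted p = 0.84 by limma). For Psen2 the levels were 7.49, 7.25 and 7.27 in MEC, against 7.22, 7.32 and 7.34 in LEC, a difference of 0.044 (SE 0.073, adjusted p = 0.70 by limma). In the table's direction its means were 7.36 ± 0.23 in MEC mutants, 7.32 ± 0.07 in MEC controls, 7.29 ± 0.12 in LEC mutants and 7.30 ± 0.11 in LEC controls (SD, n = 3).

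Between probes of the same gene, the region differences of neither gene differed past the threshold. The dimmer probe minus the brightest was 0.0092 (SE 0.084, adjusted p = 0.95) for Aplp2 and −0.0095 (SE 0.17, adjusted p = 0.97) for App, both by limma over the same 2089 probe pairs, of which 581 were called (27.8%). The App value ran from −0.44 with Agilent's processed signals to 0.55 with median scaling, and the Aplp2 value was 0.49 with median scaling (adjusted p = 0.012 by limma). The dimmer App probe passed the filter through LEC alone, so the App value is not independent of the filter.

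**Figure D5:**
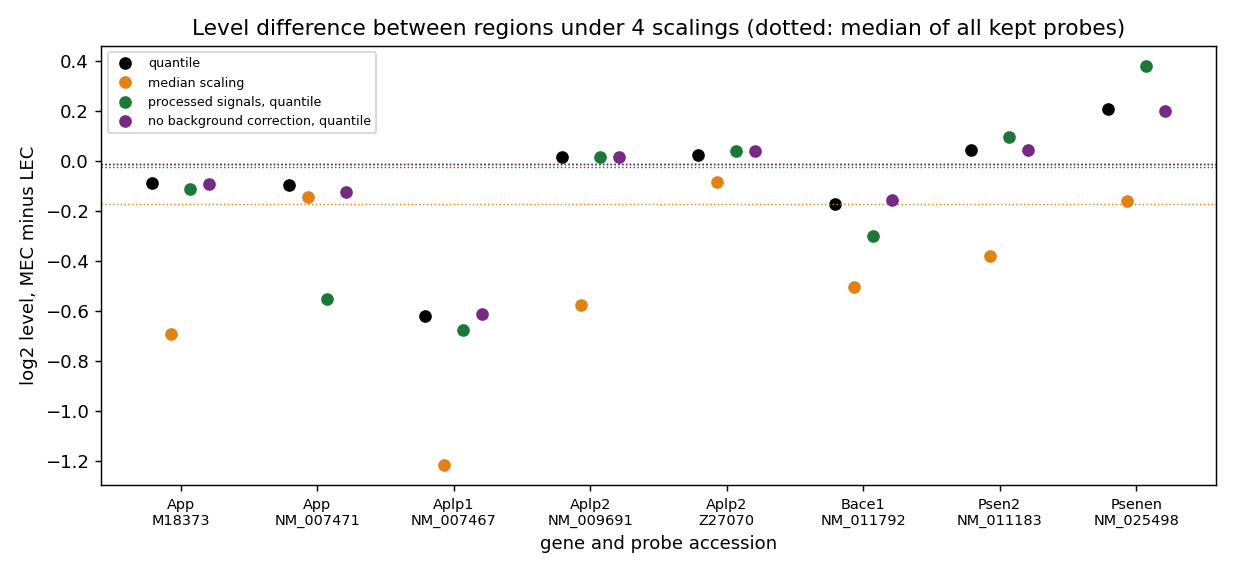
Log2 level of MEC minus LEC (y axis) for the 8 kept probes (x axis) under 4 ways of making arrays comparable, with dotted lines at the median of all kept probes under each. Aplp1 lies below its dotted line under all 4, from −1.22 to −0.61, while Psenen is at 0.20 to 0.38 with quantile normalisation and at −0.16 with median scaling.

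The regions also differed in markers of other cells, beside which the Aplp1 and Psenen differences stand. The summed linear level of the 7 kept oligodendrocyte markers was 1157 to 1392 in MEC, against 904 to 991 in LEC, without overlap. Of these markers 4 were called higher in MEC and 1 lower. Over all kept probes 24.3% were called, and the pairs of 42.7% did not overlap. Of the 5 kept excitatory markers 3 were higher in MEC and 1 lower, but their sums were 3678 to 4410 in MEC and 4140 to 5027 in LEC. Of the 6 inhibitory markers 3 were higher and 1 lower, with sums of 725 to 874 in MEC and 710 to 792 in LEC. Astrocyte sums were 2664 to 3398 in MEC and 2206 to 3707 in LEC, and none of these 6 markers was called. The part of these cells in the Aplp1 and Psenen differences was not tested.

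Of 128 further genes of APP biology, 127 were on the array and 85 passed the filter. Between regions 13 were higher in MEC, 15 lower and 57 not called, with a median level difference of −0.006 against −0.01 over all kept probes. Of all kept probes 24.3% were called. Among modulators of the secretases, the tetraspanin genes, which steer ADAM10, did not move as 1 group: Tspan12 (0.70) and Tspan5 (0.28) were higher in MEC, and Tspan33 was lower (−1.21). Gsap was higher (0.27), and Furin (−0.25), a convertase that matures proteases, and Itm2c (−0.24) were lower. Of the genes of other secretases and intramembrane proteases, Sppl3 was higher (0.22) and Adam19 lower (−0.18).

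Adaptors of the APP intracellular domain went both ways, with Nae1 (0.34) and Dab1 (0.33) higher in MEC and Dab2 (−0.51), Mapk8ip2 (−0.38) and Klc1 (−0.37) lower. In sorting and endocytosis, 2 of 17 kept genes were called, Sorcs3 (0.20) and Picalm (0.17), both higher. Genes of amyloid-beta degradation and transport included Plg (0.47), Ctsd (0.39) and Ctsb (0.19), which encode proteases or their precursors and were higher in MEC. The lipoprotein receptor gene Vldlr (−0.37), the apolipoprotein gene Clu (−0.39) and Plat (−0.36), the tissue plasminogen activator, were lower. Among other substrates of the secretases, Epha4 (1.00) and Cd44 (0.23) were higher, while Ptprf (−1.01), Sez6l2 (−0.55), Efnb1 (−0.48) and Efnb2 (−0.27) were lower. Each value in parentheses here and in the paragraph before is a log2 level difference of MEC minus LEC with an adjusted p under the threshold by limma. Some of these genes read low: mean log2 levels in MEC and LEC were 5.98 and 6.16 for Adam19, 6.36 and 6.17 for Sorcs3, 6.44 and 6.27 for Picalm, and 6.47 and 6.20 for Gsap. A dim probe could pass the filter through 1 region alone, and which of them did so is not given here.

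Between genotypes, 0 of the 85 were called by limma, and 5 had an unadjusted p under 0.05 for the average, where 2.11% of all kept probes had one. Their averaged ratios had a median of 0.022, with 54 of 85 above 0 (63.5%), against 50.8% of all kept probes. Turning replicate 2 gave a median of 0.037, with 60 of 85 above 0 (70.6%), against 61.7% of all kept probes. Among the 5 were Ctsb (0.31), the gene of cathepsin B, Ctsd (0.20), the gene of cathepsin D, and Tspan33 (0.13), all with an adjusted p of 1.00 by limma. In MEC alone 2 genes lay under that unadjusted p, Ctsb (0.33) and Adam9 (0.22), beside 1.04% of all kept probes. In LEC alone 4 did, Tspan33 (0.33), Ctsb (0.30), Vldlr (0.27) and Timp3 (0.21), beside 1.53%, and for the difference of MEC minus LEC 1 did, Tspan33 (−0.38), beside 0.547%.

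Over the 12 arrays, which are 6 pairs on 2 arrays each, the levels most like that of App belonged to Pgbd5 (Pearson's r = 0.93), Nme2 (0.90), Park7 (0.89), Med26 (0.89) and Pld3 (0.88), of 10897 genes compared. The 95th percentile of r was 0.53. Without the arrays of LEC pair 3, on which App was highest, r was 0.72 for Pgbd5, 0.64 for Nme2, 0.55 for Park7, 0.32 for Med26 and 0.67 for Pld3 over 10 arrays. Of the relatives and proteases, Aplp1 (0.36) and Bace1 (0.32) were closest to App over 12 arrays, then Aplp2 (0.21), Psen2 (0.12) and Psenen (−0.26). Without LEC pair 3 these became −0.38 for Aplp1, −0.58 for Bace1, 0.31 for Aplp2, 0.055 for Psen2 and 0.62 for Psenen, so their order rests on that pair.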

How the data were processed

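RNA from laser-captured MEC and LEC neurons was measured on 12 dual-dye Agilent arrays. The deposited scanner files hold raw mean and background signals as intensity, processed signals as intensity that the authors' scanner software had background-subtracted and dye-normalised, a log10 ratio, and flags of 0 or 1. The authors' value table holds log2 ratios, with centring and direction not stated; its column medians ran from −0.4 to 0.4. Per the file headers the software, Agilent Feature Extraction, was version 9.5.1.1, while the submitters' processing notes give 8.5.1.1. Probe coordinates are build mm8.

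Each table column was matched to the array with which it correlated over 9166 bright spots (0.995 to 0.999 in size, any other array at most 0.657). File assignment and direction follow that match.

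With R 4.3.3, limma 3.58.1 and data.table (1.17.8), background was corrected by normexp (offset 50), dyes by loess, and levels by quantile normalisation between arrays. Arrays of a pair were averaged, giving 3 pairs per region, and limma was fitted over all 12987 kept probes. Its p-values are two-sided and rest on the spread between these pairs, pooled over both regions and moderated over all probes tested. The number of pairs limits the precision. Tests were checked on simulated data: of probes changed by 1 log2 unit, 95% were recovered for the averaged ratio and 98% for the level, over 12981 probes. False calls numbered 7 and 8. The simulated noise was independent and normal with every direction settled, and changes as small as the genotype ratios of the 9 genes were not simulated. Named were all probes of the 9 genes, and of further pathway genes those past the threshold, or otherwise the 2 lowest and 2 highest with an unadjusted p under 0.05, and the 5 genes with levels most like App. The genes and lists were chosen with earlier results of these data known. Some results that the naming rule covers are not reported here.

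Alternatives were other background corrections and scalings, the authors' table, filters, a single probe per gene, single genotypes or dyes, the direction of replicate 2, files as labelled, left-out replicates, a replicate block and a fit of single arrays.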

Additional observations from a re-analysis of the deposited data

How the results depend on the processing

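Over 17 alternatives the averaged genotype ratio of the brightest Aplp2 probe stayed above 0, from 0.071 to 0.32, and no member's genotype effect was called in any. Calls over all probes were 0 in every genotype comparison, except that without LEC replicate 2 there was 1 in MEC and 1 for the average (range over left-out replicates 0 to 1), and in the fit of 12 arrays with the pair as a random block there were 7 in MEC, 1 in LEC and 2 for the average. With replicate 2 turned as labelled, the averaged genotype effect had 0 calls and 1564 of 13273 probes at an unadjusted p under 0.05, against 274 of 12987; 1 probe difference was called and the Aplp2 probe difference reversed to 0.020.

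Levels depended on the scaling. With median scaling 6749 probes were called between regions and 4 member values turned below 0: Aplp2 (NM_009691) to −0.58, Aplp2 (Z27070) to −0.087, Psen2 to −0.38 and Psenen to −0.16. App (M18373) moved to −0.69 and Bace1 to −0.50 in that setting, where all kept probes had a median of −0.17. Over all alternatives, App (M18373), Aplp2 (NM_009691) and Psen2 were each called between regions in 1 of 18, and Bace1 in 2 of 18. The region calls numbered 3152, 925 without replicate 2 of both regions, 439 in mutant channels and 621 in control channels, and left-out single replicates gave 1953 to 2903, with 1953 without MEC replicate 1 and 2000 without LEC replicate 2. Calls of level differences between probes of a gene numbered 581, 2194 without the filter (over 13601 probe pairs), 117 without replicate 2 of both regions, 114 in mutant and 77 in control channels, and 328 to 529 with single replicates left out (367 without MEC replicate 1, 328 without LEC replicate 2). Settings with fewer samples or channels rest on less data by construction; for the others the cause was not tested.

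Pairs of the same number in MEC and LEC did not deviate together (correlations −0.18, −0.0042 and −0.35 for ratios), and no pair correlated best with its own number. With the replicate block 0 probes were called for any genotype comparison, 2748 between regions and 505 between probes of a gene; it changed no member's call. No fit with slide or scan day as a block was run, because each of 12 slides held 1 array and each scan day 1 region.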
